A study of Lithospermum officinale with 3 samples.

Results

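The stem-peaked unigenes of *Lithospermum officinale*, a medicinal herb of the borage family, were 152 of the 77047 unigenes whose transcripts were counted by RNA sequencing of 3 organs, the leaf, the stem and the root. A unigene is a sequence assembled from the reads without a genome, so pieces or variants of 1 locus can stand apart as separate unigenes. The 152 were chosen from the read counts themselves. The 100 unigenes most counted over the 3 libraries were set aside, and each library was scaled by its remaining counts. A stem-peaked unigene then had 50 or more expected counts in stem and a scaled stem count at least 4 times that in leaf and at least 4 times that in root, with a count of 0 taken as 0.5. The ratios of stem to leaf and of stem to root are therefore given below as descriptions of the choice, not as findings.

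Leaf, stem and root came from untreated plants 2 years old that grew outdoors, and each tissue was represented by 1 library. No value below carries a replicate error, no test between tissues was possible, and intervals cover counting error only. How many plants were sampled, and whether they were pooled, is not given in the sources used here. By its title, the study looked for genes that make the plant's specialized metabolites. The files pair no unigene with a gene name. Gene functions and sequences were therefore not analysed here, the tissue labels were not checked against marker genes, and each unigene appears under its ID.

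The stem carries the vascular strands of a plant. Xylem conducts water through cells with lignified walls, phloem moves sugars from the leaves, and the cambium between them adds new cells of both kinds. Fibres, cortex and epidermis complete the organ, and green stems also photosynthesize. A library of a whole stem mixes the RNA of all these cells, so more cells of a type and more RNA per cell cannot be told apart.

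The stem library held 4469828 expected counts, the leaf library 3490670 and the root library 10045956. Outside the 100 most counted unigenes there remained 2525988 counts in stem, against 1432056 in leaf and 4351427 in root, and levels below in scaled CPM are CPM (counts set to a common library total) computed over these remaining counts. A stem count of 50 at exactly 4-fold corresponded to 7.09 counts in leaf and 21.5 in root, so the leaf side of the choice rested on fewer counts than the root side. A count of 0, which allows up to 3 counts, left room for 2.09 scaled CPM in leaf and 0.689 in root. Reads copied from 1 molecule could not be told apart, so intervals and these limits leave out that source of error.

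Of 12018 unigenes outside the 100 with 50 or more stem counts, the 152 stem-peaked ones were 1.26%. The same rule turned to the other tissues gave 109 leaf-peaked unigenes, 1.70% of the 6402 with 50 or more leaf counts, and 820 root-peaked ones, 4.92% of 16658. These 3 numbers rest on libraries of unequal depth. With every library thinned to 1432056 counts outside the 100, there were 96 stem-peaked, 115 leaf-peaked and 454 root-peaked unigenes. The thinning was drawn at random only once, so how far these numbers vary between draws is not known. The order of leaf and stem turned in number, while by share leaf was already ahead before thinning on this scale (1.70% against 1.26%). Shares after thinning were not computed. These numbers also followed the scale of the libraries. When all counts were used for scaling there were 256 stem-peaked and 48 leaf-peaked unigenes. On the scale of the deposited TPM, a transcript level per unigene length and library, there were 235 and 40. The higher share of leaf did not hold on these scales, which leave the 12018 and 6402 unchanged.

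Being 4-fold over leaf was the rarer of the conditions. Stem stood at least 4-fold over leaf in 283 of the 12018 unigenes (2.35%) and at least 4-fold over root in 1796 (14.9%). The stem-peaked unigenes were 53.7% of the first list and 8.46% of the second. The smaller of the 2 ratios, called the lead below, was set by leaf in 129 of the 152 and by root in the other 23. The median lead was 5.69, with a lower quartile of 4.65 and an upper quartile of 8.94, and 19 unigenes had a lead of 16-fold or more. The plot of both ratios shows most members close to the leaf threshold and spread widely over root.

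**Figure D1:**
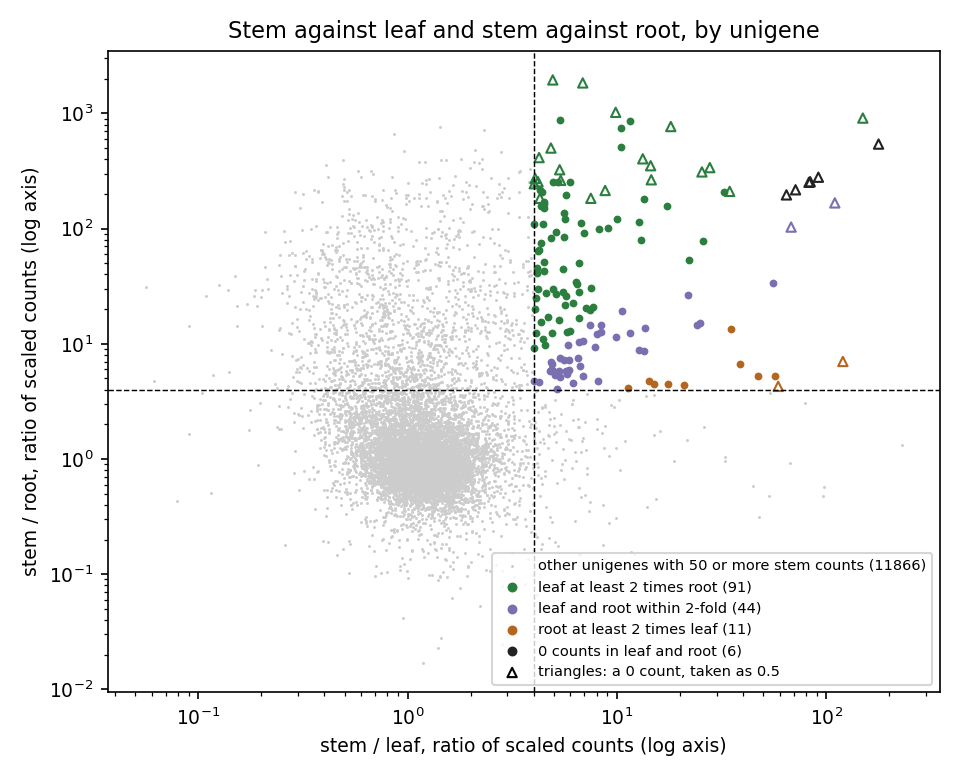
Each point is 1 of the 12018 unigenes with 50 or more stem counts outside the 100 most counted, with the stem to leaf ratio on the x axis and the stem to root ratio on the y axis, both logarithmic. Dashed lines mark 4-fold, coloured points are the 152 stem-peaked unigenes by the relation of leaf to root, and triangles hold a count of 0 taken as 0.5; the highest stem to root ratio drawn is 1950.

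The set had no gap at its edge. Just inside the threshold, Unigene40813 (1124 nt) had 142 counts in stem, against 20 in leaf and 51 in root, and Unigene44454 (606 nt) had 71, 10 and 0, both with a stem to leaf ratio of 4.03. Just outside it, Unigene4675 (634 nt) had 500, 71 and 34 counts in the same order and a ratio of 3.99, and Unigene4860 (1414 nt) had 674, 96 and 41 and a ratio of 3.98. A lead of 4 to 5 was found in 53 unigenes and one of 3 to 4 in 94. The unigenes named just outside were better counted than those named just inside. Counts of the other unigenes near the edge were not compared.

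Counting error alone blurred the edge for most members. An exact conditional binomial 95% interval of the ratio lay wholly beyond 4-fold over leaf for 59 members, where 0.790% of the 12018 did so, and wholly beyond 4-fold over root for 129, where 11.8% did so. Both intervals lay beyond 4-fold for 52 members, which is every such unigene among the 12018 (0.433%), as the rule requires.

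The members differed widely in level. The median stem level was 22.1 TPM, with a lowest value of 4.57 and a highest of 604. Of the 152, 17 reached 100 TPM (11.2%, against 4.18% of the 12018). In leaf the median was 1.88 TPM and in root 0.790 TPM. As read counts the median was 102 in stem but only 9 in leaf and 7 in root, although the root library was the deepest. Counts in root were at 0 for 27 members (17.8%, against 0.657%) and counts in leaf for 10 (6.58%, against 0.116%).

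Together the 152 unigenes were a small part of the stem library. They held 1.30% of the stem counts outside the 100 most counted unigenes (95% exact binomial interval 1.29% to 1.32%), 0.188% of those in leaf (0.181% to 0.196%) and 0.0543% of those in root (0.0522% to 0.0566%). Of all stem counts they held 0.737%. The 10 members of highest stem count supplied 40.0% of the members' stem counts. The leaf-peaked unigenes held 2.08% of the leaf counts outside the 100, and the root-peaked ones 8.90% of the root counts.

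Unigene3723 (637 nt) had the highest stem level of the set. It had 1322 counts in stem, against 23 in leaf and 11 in root, which are 604, 13.0 and 3.34 TPM, and it ranked 75th in the stem library by TPM. Stem stood 32.6-fold over leaf (95% interval 21.6 to 51.6) and 207-fold over root (115 to 416). Next came Unigene71275 (973 nt), with 1728 counts in stem, against 93 in leaf and 4 in root, or 457, 30.5 and 0.700 TPM. It stood 10.5-fold over leaf (8.55 to 13.1) and 744-fold over root (290.1 to 2734). Stem was far above both other libraries in each of them, with leaf between stem and root.

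Unigene12898 (1304 nt) had the largest lead when judged by the lower end of the interval. It had 264 counts in stem, against 1 in leaf and 0 in root. The stem to leaf ratio was 149.7 with an interval of 26.6 to 5934, and stem was at least 152-fold higher than root when root was set to 3 counts. Such a fold takes the stem count as exact, and the exact interval, which does not, began at 122. Unigene75999 (1027 nt) followed, with 157 counts in stem and 0 in both other libraries, so that with 3 counts set for each of them stem was at least 29.7-fold higher than leaf and at least 90.2-fold higher than root. The exact intervals of these ratios began at 23.8 and 72.5. Its level was 38.9 TPM in stem. Both unigenes were close to confined to the stem library at the depth reached, which does not show that they were absent elsewhere.

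**Figure D2:**
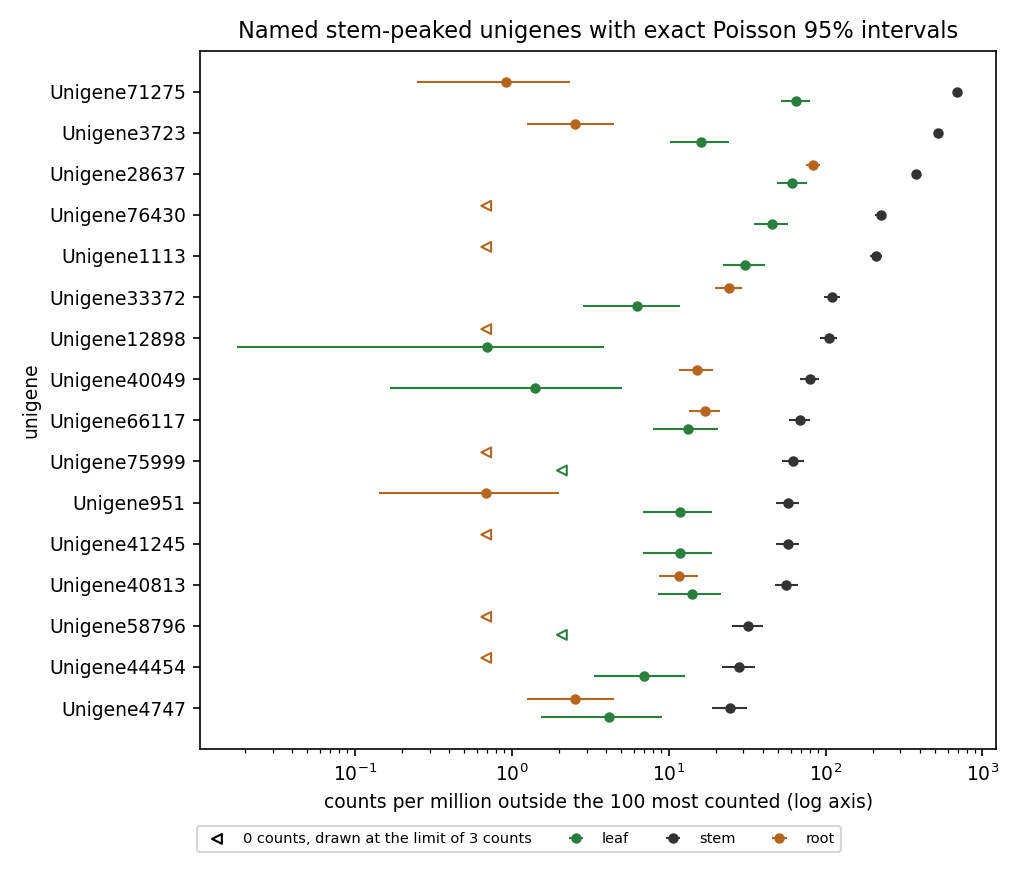
Levels of the 16 stem-peaked unigenes named for their level, lead, length or place at the threshold, in scaled CPM on a logarithmic x axis, with 1 point per library and exact Poisson 95% intervals that cover counting error only. Open triangles mark counts of 0 at the limit of 3 counts, 2.09 scaled CPM in leaf and 0.689 in root. The exact Poisson upper ends for a count of 0 are higher, at 2.58 and 0.848. Stem lies to the right of leaf and root in every row, as the choice of members requires.

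The choice did not set which of leaf and root was higher, and the members split unevenly on this. Leaf was at least 2 times root in 97 of 152 (63.8%), against 23.7% of the 12018 unigenes with 50 or more stem counts. Root was at least 2 times leaf in 11 (7.24%), against 17.1%, and the levels were within 2-fold in 44 (28.9%), against 59.2%. The first number includes 6 members at 0 in both libraries, which the value of 0.5 in libraries of unequal depth places there. Without them 91 remain.

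Other criteria also gave more members with leaf above root than the reverse. Leaf was at least 4 times root in 73 members (48.0%, against 15.4% of the 12018), and root at least 4 times leaf in 6 (3.95%, against 3.45%). The counting interval of the leaf to root ratio lay wholly above 1 for 72 members (47.4%, against 30.6%) and wholly below 1 for 10 (6.58%, against 37.0%). It held 1 for the other 70 (46.1%, against 32.4%). The median log2 ratio of leaf to root was 1.85 over the 152 members and -0.17 over the 12018. Members had been limited from above in both leaf and root, so the comparison with all unigenes is a description, not a test.

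**Figure D3:**
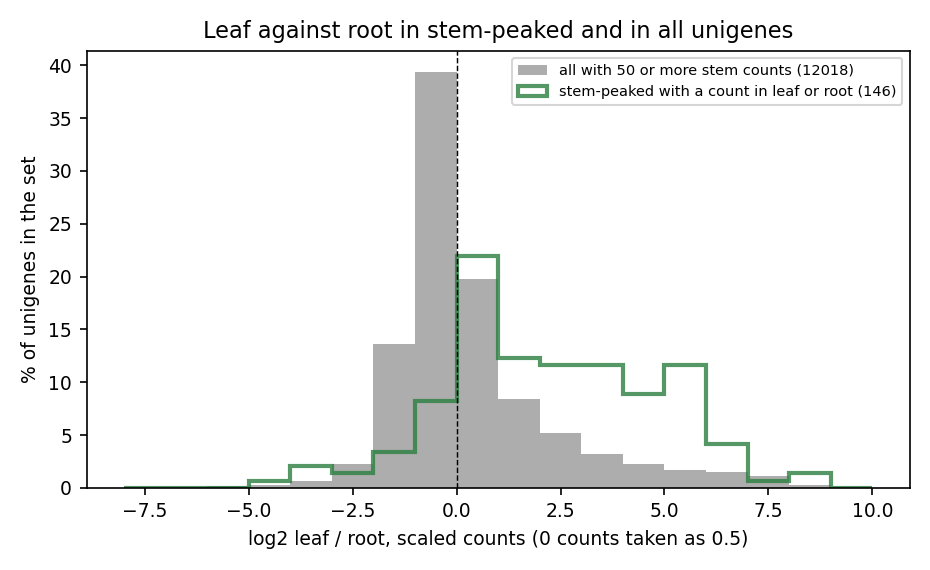
Distribution of the log2 ratio of leaf to root, in scaled counts on the x axis, as the percentage of unigenes per unit of log2 on the y axis. The grey area is all 12018 unigenes with 50 or more stem counts, with a median of -0.17, and the green outline is the 146 stem-peaked unigenes with a count in leaf or root, which lie mostly to the right of 0 with a median of 1.97.

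The 91 members with leaf second and a count in leaf formed the main part of the set. They held 77.9% of the members' stem counts and 14 of the 17 members at 100 TPM or more. Their median counts were 10 in leaf and 3 in root, and root was at 0 in 21 of them. Stem stood at a median of 5.56 times leaf, little over the threshold, and 102 times root. The median over root takes a count of 0 as 0.5. Summed over these members the level was 10160 scaled CPM in stem, 1547 in leaf and 123 in root. Unigene3723 and Unigene71275, described above, were the members of this kind with the highest stem TPM.

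Among the members at 0 in 1 or both other libraries, Unigene76430 (1333 nt) was the most counted. It had 566 counts in stem, against 65 in leaf and 0 in root, with a level of 103 TPM in stem and 14.7 TPM in leaf. Stem was 4.94-fold over leaf (3.81 to 6.48). It was at least 325-fold higher than root with root set to 3 counts, and the exact interval began at 263. Unigene1113 (1382 nt) had 533 counts in stem, against 44 in leaf and 0 in root, at 93.3 TPM in stem and 9.55 in leaf. Its stem level was 6.87-fold over leaf (5.05 to 9.57). Against 3 counts in root it was at least 306-fold higher, with an exact interval from 248. Both were shoot unigenes with more in stem than in leaf, and no read of either was counted in the deepest library.

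Only 11 members had root second. Their counts ran from 50 to 278 in stem, from 8 to 106 in root and from 0 to 9 in leaf, and their median ratios were 35.1 over leaf and 4.79 over root. They held 4.28% of the members' stem counts. Unigene33372 (721 nt) was the highest by stem TPM, with 278 counts in stem, against 9 in leaf and 106 in root, or 107, 4.31 and 27.2 TPM. Root was 3.88-fold over leaf in it (1.97 to 8.71). Unigene40049 (1177 nt) had 200 counts in stem, against 2 in leaf and 66 in root, at 42.2, 0.520 and 9.26 TPM, and root was 10.9-fold over leaf (2.89 to 91.5). In this small group the leaf library was the low one by definition. The counting interval of leaf to root lay wholly below 1 for 9 of the 11.

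By their definition, the 44 members with leaf and root within 2-fold were lower than stem by similar amounts on both sides. The medians were 6.55 over leaf and 7.38 over root. Their stem counts ran from 51 to 957. Unigene28637 (748 nt) was the highest, with 957 counts in stem, against 88 in leaf and 364 in root, or 352, 40.2 and 89.1 TPM. Stem was 6.17-fold over leaf (4.95 to 7.76) and 4.53-fold over root (4.01 to 5.12), and root was 1.36-fold over leaf (1.08 to 1.74). Unigene66117, at 427 nt the shortest member, had 173, 19 and 74 counts in the same order, or 144, 19.7 and 40.9 TPM. Its leaf and root levels were not distinguishable at this depth, with root at 1.28 times leaf (0.766 to 2.25). For 43 of the 44 the interval of the leaf to root ratio held 1, in a group limited to ratios near 1.

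The 6 members without a count in leaf or root had 57 to 157 counts in stem, with a median of 19.3 TPM. The second of them by stem count after Unigene75999 was Unigene58796 (2011 nt), with 81 counts and 9.33 TPM in stem. Against 3 counts in each, stem was at least 15.3-fold higher than leaf and at least 46.5-fold higher than root in it, with exact intervals from 12.2 and 37.0. Of the 12018 unigenes with 50 or more stem counts, 14 were at 0 in leaf and 79 at 0 in root. Only these 6 were at 0 in both, and a unigene at 0 in both meets the rule at any stem count of 50 or more.

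**Figure D4:**
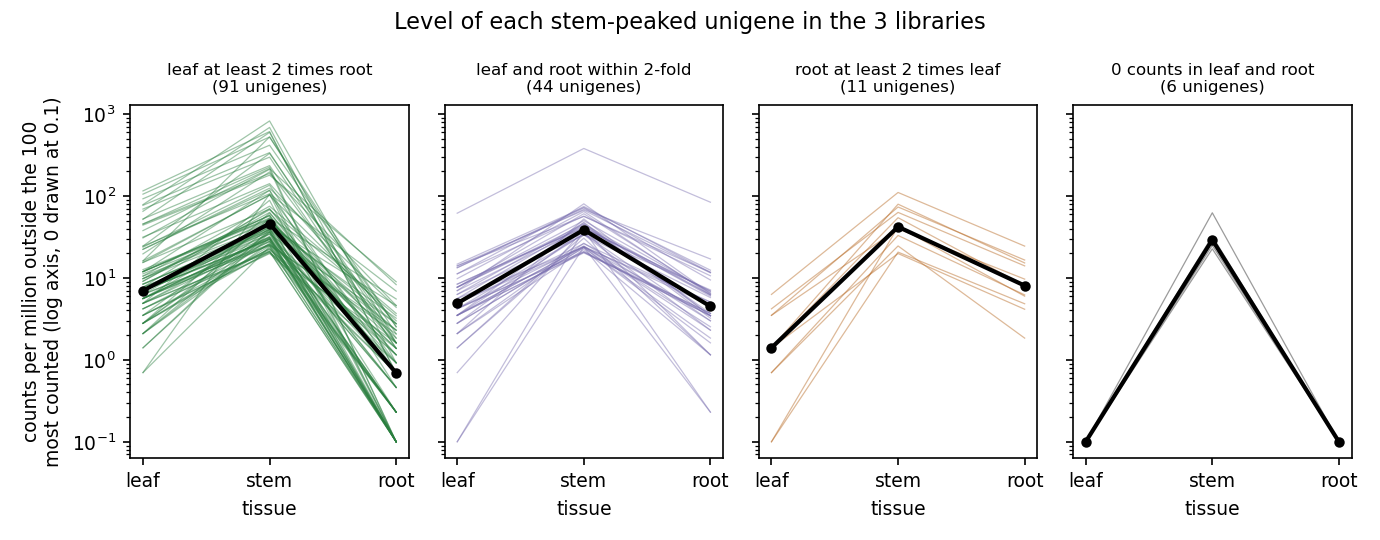
Scaled CPM (logarithmic y axis, with 0 drawn at 0.1) of each stem-peaked unigene in leaf, stem and root, in 4 panels by the relation of leaf to root, with the median as a black line. The panels hold 91, 44, 11 and 6 unigenes; every line peaks in stem because the members were chosen so, and what differs between panels is the level left in leaf and in root.

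Length was not part of the choice, and the stem-peaked unigenes were shorter than other unigenes of like count. Their median length was 1306 nt, against 1828 nt for the 12018. The gap held at each depth of counting, with medians of 1092 against 1808 nt at 50 to 99 stem counts, 1631 against 1916 nt at 100 to 199 and 1430 against 1772 nt at 200 or more. By length, 2.67% of the unigenes of 500 to 999 nt were stem-peaked (44 of 1649), 1.71% of those of 1000 to 1499 nt (44 of 2571) and 26 of the 2598 of 1500 to 1999 nt. Among those of 3000 nt or more only 3 of 1939 were, or 0.155%. As the counts were alike and the unigenes shorter, their level per length was higher, with a median of 22.1 TPM in stem against 13.6 TPM.

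This was not particular to stem in these numbers. Leaf-peaked unigenes had a median length of 1348 nt against 1836 nt for all with 50 or more leaf counts, and root-peaked ones 1336 nt against 1759 nt. The longest stem-peaked unigenes were Unigene951 (3357 nt), with 145 counts in stem, against 17 in leaf and 3 in root, and Unigene41245 (3124 nt), with 145, 17 and 0. Both stood 4.84-fold over leaf, with an interval of 2.92 to 8.53 that reaches below the threshold. After Unigene66117 the shortest was Unigene4747 (440 nt), with 62, 6 and 11 counts in the same order.

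The share of stem-peaked unigenes was highest among those most counted in stem. It was 1.17% at 50 to 99 stem counts (72 of 6135), 1.39% at 100 to 199, 0.895% at 200 to 499, 1.93% at 500 to 999 (8 of 415) and 4.19% at 1000 or more (7 of 167). The last bins hold few members, and the rule used the stem count, so these shares describe the choice. The 100 unigenes most counted over the 3 libraries are also left out of these bins.

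**Figure D5:**
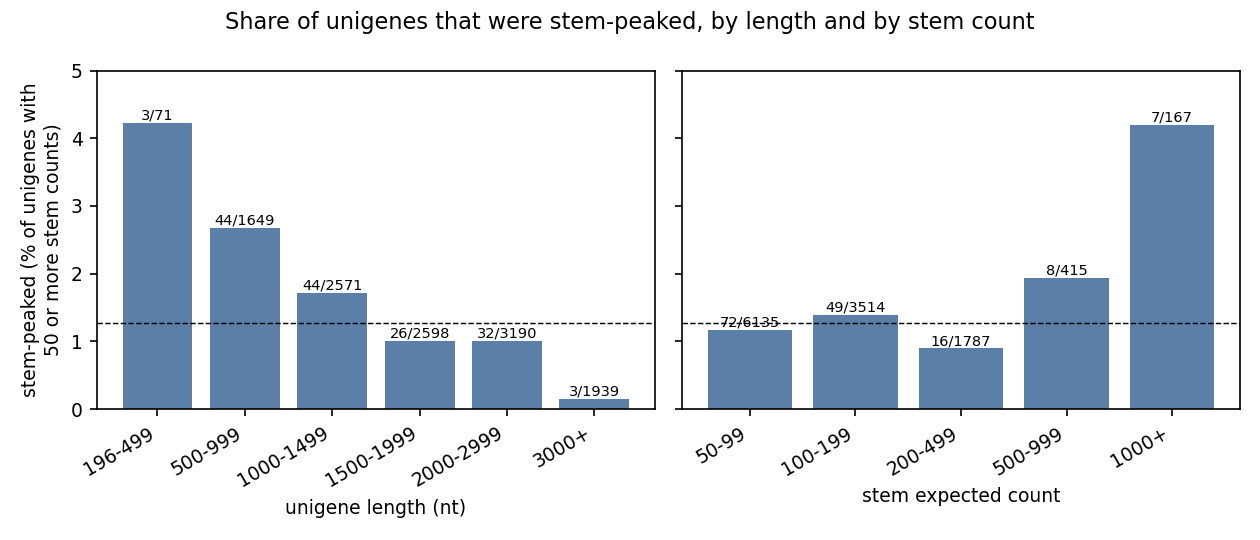
Stem-peaked unigenes as a percentage of all unigenes with 50 or more stem counts, by length in nt (left) and by expected count in stem (right), with the numbers above the bars and the overall 1.26% as a dashed line. The share is 0.155% at 3000 nt or more and 2.67% at 500 to 999 nt, and is 4.19% at 1000 or more stem counts. The rule used the stem count but not the length.

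Some members carried consecutive unigene numbers. Such a neighbour was found for 13 of the 152 (8.55%), in 1 run of 3 and 5 pairs. Of 82 neighbouring positions next to a member that held 50 or more stem counts, 14 were stem-peaked themselves (17.1%), against 1.26% of all unigenes at that count. The corresponding shares were 19.0% against 1.70% for leaf-peaked unigenes and 35.5% against 4.92% for root-peaked ones. How the assembler numbered its unigenes is not given in the sources used here, and members of a run may be pieces or variants of 1 locus, so the 152 are not 152 independent genes.

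The run of 3 was Unigene51652 (1059 nt), Unigene51653 (1520 nt) and Unigene51654 (725 nt). Unigene51652 had 113 counts in stem, against 8 in leaf and 16 in root. Unigene51653 had 105, 10 and 14 in the same order, and Unigene51654 had 67, 3 and 13. Their stem levels were 27.0, 16.5 and 25.7 TPM. Their stem to leaf ratios were 8.01, 5.95 and 12.7, and their stem to root ratios 12.2, 12.9 and 8.88. By the 2-fold division Unigene51653 had leaf second, and leaf and root were within 2-fold in the other members of the run.

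The most counted pair was Unigene30643 (1014 nt) and Unigene30644 (569 nt). Unigene30643 had 592 counts in stem, against 75 in leaf and 6 in root, and Unigene30644 had 54, 6 and 1. Stem stood 4.47-fold and 5.10-fold over leaf in them, with stem levels of 149 and 28.9 TPM. The pair shared its profile, with leaf second and root low, but not its level.

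Unigenes numbered next to a member were also viewed with the stem-peaked ones left out. Of 215 such neighbours with 10 or more counts over the 3 libraries, 70 were highest in stem (32.6%), against 28.1% of the 43199 unigenes outside the set and outside the 100 most counted. The larger group includes these neighbours, and the difference was not tested.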

How the data were processed

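Leaf, stem and root of *Lithospermum officinale* were sequenced as 1 paired-end, strand-specific messenger RNA library each, per the labels' protocols. The submitters' processing notes list Trimmomatic and RSEM with no version; the assembler and the aligner were not given in the sources used here. The authors deposited for each unigene an RSEM expected count, a TPM and an FPKM, per the file headers. Of the expected counts 100% were whole, so reads shared by near-identical unigenes may have been split, rounded or lost. The deposited FPKM in the table merging the tissues had 0 differences from the library tables.

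Ratios, shares and intervals (Clopper-Pearson, exact Poisson) were computed in Python 3.11.15 (pandas 2.3.3, numpy 2.4.6, scipy 1.17.1), and figures drawn with matplotlib 3.10.9. The calculations were tested on simulated libraries. No differential test was run, since each tissue had 1 library. Folds against a count of 0 were computed against 3 counts in that library. Alternatives were edgeR 4.0.16 TMM factors, DESeq2 1.42.0 size factors (R 4.3.3), all counts, deposited TPM, other minimums, folds and zero values, and thinning without replacement. Unigenes were named by rule, 2 for each ranking by stem TPM, lead, second tissue, counts of 0, length and closeness to the threshold, with the 2 leading runs of consecutive numbers. The members, rankings and alternatives were chosen with earlier results of these data known.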

Additional observations from a re-analysis of the deposited data

How the results depend on the processing

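Under the alternatives 112 values were computed anew: 58 remained within 1.5 times (counts of unigenes), within the exact binomial interval (the share of stem counts, 1.29% to 1.32%) or within the order-statistic interval of the median (1177 to 1494 nt for length, 1.40 to 2.60 for log2 leaf to root), and 54 moved. None changed sign. The values in the same order are stem-peaked unigenes, their share of the stem counts, those with leaf second, those with root second, those with both intervals beyond the fold, their median length, and leaf-peaked and root-peaked unigenes, with only values that moved given. Scaling by all counts gave 256, 2.47%, 166, 18 and 103, with 48 leaf-peaked, and raised log2 stem to leaf by 0.46 and stem to root by 0.38. Deposited TPM gave 235, 2.17% and 93 with both intervals beyond 4-fold, with 40 leaf-peaked, and moved the log2 ratios by 0.51 and -0.20. TMM factors moved only the share, to 1.28%, DESeq2 size factors to 1.26%, and leaving out the 200 most counted to 1.37%. Without a count minimum there were 1447, 1.78%, 866 with leaf second, 30 with root second, 443 nt, 1898 leaf-peaked and 3293 root-peaked. A minimum of 20 counts gave 283, 1.46%, 167, 22, 1028 nt, 202 and 1405. A minimum of 100 counts gave 80, 1.10%, 52, 7, 31, 1508 nt and 66 leaf-peaked. A 2-fold criterion gave 506, 4.64%, 309, 27, 236, 1494.5 nt, 712 and 2382, and an 8-fold criterion 45, 0.479%, 29, 1, 19, 1078 nt, 22 and 369. Thinning gave 96, 1.16%, 64 with leaf second and 454 root-peaked. Taking a count of 0 as 3 moved none of the 9 values, but most of them could not move. At the smallest stem count allowed, the 4-fold limit lay at 7.09 counts in leaf and 21.5 in root, above 3. Membership, and with it share and length, was therefore fixed, and the intervals do not use the zero value. The limits for leaf-peaked and root-peaked unigenes also lay above 3. Only second tissue and the median log2 could respond, with 97 leaf second, 11 root second and a median of 1.60. The cause of the moves listed above was not tested, apart from those that a wider or narrower criterion makes by construction. The order-statistic interval takes the 152 members as independent, which they are not. It served only as a yardstick for calling a median moved, not as an error of the median. By it the median log2 leaf to root of 1.85 never counted as moved. The median was 1.59 on deposited TPM and 2.10 at a minimum of 100 counts.

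Of the 152 members, 146 were found with TMM factors, 143 with DESeq2 size factors, 145 on deposited TPM, all 152 with all counts as scale and 89 after thinning. Leaf was second more often than root in every alternative run. All of these runs used the same 3 libraries, and unigenes at 0 in both leaf and root can count as leaf second through unequal depth. Second place by counting interval, and leaving out the members at 0 in leaf and root, were chosen after seeing the data. They gave 72 with leaf second and 10 with root second, and 91 with leaf second and a median log2 of 1.97. No paired analysis was possible because there was a single library per tissue, and no library could be left out. Depth limits both ratios: 80 of the 152 members had under 10 leaf counts (52.6%) and 86 had under 10 root counts (56.6%). Over the 12018 unigenes the shares were 1.39% and 5.50%, and the rule itself limits both counts from above.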
